A study of Mus musculus with 9 samples.

Results

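The Zfp genes are mouse genes whose symbol joins the letters Zfp, for zinc finger protein, to a number. Members were every intron in the authors' deposited table of introns whose gene symbol had that form, with the pluripotency gene Zfp42 left out. There were 246 such introns in 111 genes, out of 22228 introns in 7016 genes. All 111 symbols matched a RefSeq gene by current or older name, and 4 of them are older names (Zfp259 is now Zpr1, Zfp498 is Zscan25, Zfp295 is Zbtb21 and Zfp187 is Zscan26).

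The libraries were polyadenylated RNA from v6.5 mouse embryonic stem cells, sequenced strand by strand from both ends. The groups were KH-CB19 at 0 h, KH-CB19 at 2 h, DMSO at 0 h and DMSO at 2 h, with 2 libraries each, labelled biological duplicates. KH-CB19 inhibits the Clk kinases, enzymes that phosphorylate the SR family of splicing factors, and was dissolved in DMSO, the solvent that the control cells received alone. All groups came from 1 line, and the 0 h cells were harvested at once after treatment. For the 0 h groups the authors' deposited table gives 3 things for an intron: the observed mean of reads over the 2 libraries, the mean expected by the authors, and an adjusted p for their ratio. For the 2 h groups it gives normalised mean reads and an adjusted p, and does so for detained introns alone, a class the authors assigned. No value per library was used here, so no error between duplicates stands beside any value, and a call below means an adjusted p under 0.05 by the authors.

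Most mammalian zinc finger proteins carry C2H2 fingers, short loops in which a pair of cysteines and a pair of histidines hold a zinc ion and the loop reads bases of DNA or RNA. Many also carry a KRAB domain at the start of the protein, which recruits the corepressor Trim28 and through it enzymes that lay down repressive chromatin. In stem cells such proteins are known for silencing transposable elements and, in the case of Zfp57, for guarding DNA methylation at imprinted genes. A detained intron is one that stays unspliced in polyadenylated transcripts held in the nucleus while the other introns of the transcript have been removed. Reads in an intron here were taken as the authors counted them, and more unspliced transcript and more transcript of the gene cannot be told apart from a read level alone.

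In the proteins translated from the longest coding transcripts of the GENCODE annotation, 107 of the 111 genes held at least 1 C2H2 motif (2 cysteines, 12 residues, 2 histidines, with short spacers). The 4 without were Zfp185, Zfp259, Zfp330 and Zfp365. The largest number was 36, in Zfp142. A KRAB-like sequence, sought in every protein coding transcript of a gene, was found in 43 genes. These held 64 of the introns, and the other 68 genes held 182.

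The introns that the results turn on are shown as the 30 bases of spliced transcript around the point where the intron sat. They were chosen because each changed at 2 h or is the other detained intron of a gene with such a change. They run 5′ to 3′ on the transcript's strand, and the capitals mark the last 3 bases of the upstream exon and the first base of the downstream exon. They come from GENCODE transcripts of the build GRCm38, matched by symbol and exact intron length.
Zfp598 intron 9: ggttgccctctcAAATaccctcccaccacc
Zfp598 intron 5: cacgccggagtgAGGGagtcgtcagtggtg
Zfp142 intron 2: ctgaagagacctCAGGtgtcctggtaaagg
Zfp330 intron 2: tttgtgcacagtGTGGgaaaacaaagtgta
Zfp384 intron 10: gctgtgtgacccTGGGtgccggatgtgctc
Zfp384 intron 11: gcagcagcacacCCGGattcactccaagat
The most common exon junction in mammals has AG at the end of one exon and G at the start of the next. Among the 6 shown, read on the transcript's strand only, that triplet AGG spans the junction in Zfp142. Over all matched introns it was present at 10 of 26 detained Zfp introns (38.5%) and at 66 of 212 other Zfp introns (31.1%). In the whole table it was present at 26.8% of the 19074 matched introns. There the order was reversed, with 24.5% of 2803 detained introns and 27.1% of 16271 others, and no test of these shares was made.

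The authors classed 30 of the 246 Zfp introns as detained (12.2%), where the share over the whole table was 15.5%. They fell in 23 of the 111 genes (20.7%), against 34.6% of all genes in the table. Of these genes 17 had 1 detained intron. Zfp280d, Zfp326, Zfp384, Zfp532 and Zfp598 had 2 each, and Zfp57 had 3. How the class was assigned is not given in the sources used here. It moves with the 0 h values, so those values describe the class and do not test it.

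Detained introns were unevenly spread over the proteins' kinds. Among the 43 genes with a KRAB-like sequence, 2 held a detained intron (4.65%): Zfp57, with introns 2, 7 and 12, and Zfp534, with intron 3. Among the other 68 genes, 21 did (30.9%). Counted by intron this was 4 of 64 (6.25%) in the KRAB-like genes and 26 of 182 (14.3%) in the others, beside 15.5% over the whole table. The KRAB-like genes also listed fewer introns, 1.49 per gene against 2.68 in the other Zfp genes. By the authors' deposited table, among introns with a value at 0 h, the median observed mean was 25.5 reads in KRAB-like genes and 23.25 in the others in KH-CB19 at 0 h, and 29.0 against 25.0 in DMSO at 0 h. No test of this difference between kinds of gene was made, and the parts played by the number of listed introns and by read depth were not tested. In some genes with 1 listed intron, observed and expected reads were equal, so that intron could not stand above expected reads. By the authors' deposited table this held in the KRAB-like gene Zfp1, with 618 of each in KH-CB19 at 0 h and 825 in DMSO. Among the other genes it held in Zfp295, with 43 in KH-CB19 and 62.5 in DMSO. The share of such introns in each kind of gene was not counted.

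The place of the introns in the protein was read from the matched transcripts. In the KRAB-like genes 57 introns were matched in a transcript that encodes C2H2 motifs, and all 57 lay upstream of every motif. A further 4 were matched in transcripts that encode none. A finger array held in the last coding exon is the usual layout of KRAB zinc finger genes. Of the 22 detained introns of the other Zfp genes matched in such a transcript, 9 cut the array (40.9%), 6 lay upstream of it (27.3%) and 7 downstream (31.8%). Of the 142 introns of these genes that were not detained, 47 cut it (33.1%), 70 lay upstream (49.3%) and 25 downstream (17.6%). No test of these shares was made. Zfp523, a paralog of the promoter factor Zfp143, had its detained intron 9 between 5 upstream and 2 downstream motifs. Zfp236 had its detained intron 26 after 28 motifs and before 2, and Zfp142 had intron 2 before all 36. Zfp523 and Zfp236 were chosen as examples after their values were seen.

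Observed reads at 0 h in the authors' deposited table stood above the expected reads in 43 of 203 Zfp introns with a value in KH-CB19 (21.2%), where the share over all introns was 27.6%. They stood below in 16 (7.88%), where that share was 8.93%. In DMSO at 0 h, 50 of 238 stood above (21.0%, all introns 28.2%) and 26 below (10.9%, all introns 10.9%). The median log2 ratio of observed to expected was 0.31 in KH-CB19 and 0.22 in DMSO over the Zfp introns, and 0.60 and 0.53 over all introns of the table. In the KRAB-like genes 7 of 53 introns stood above in KH-CB19 (13.2%) and 8 of 61 in DMSO (13.1%), and in the other Zfp genes 36 of 150 (24.0%) and 42 of 177 (23.7%). Introns with equal observed and expected reads, which could not stand above, are included in these totals.

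**Figure D1:**
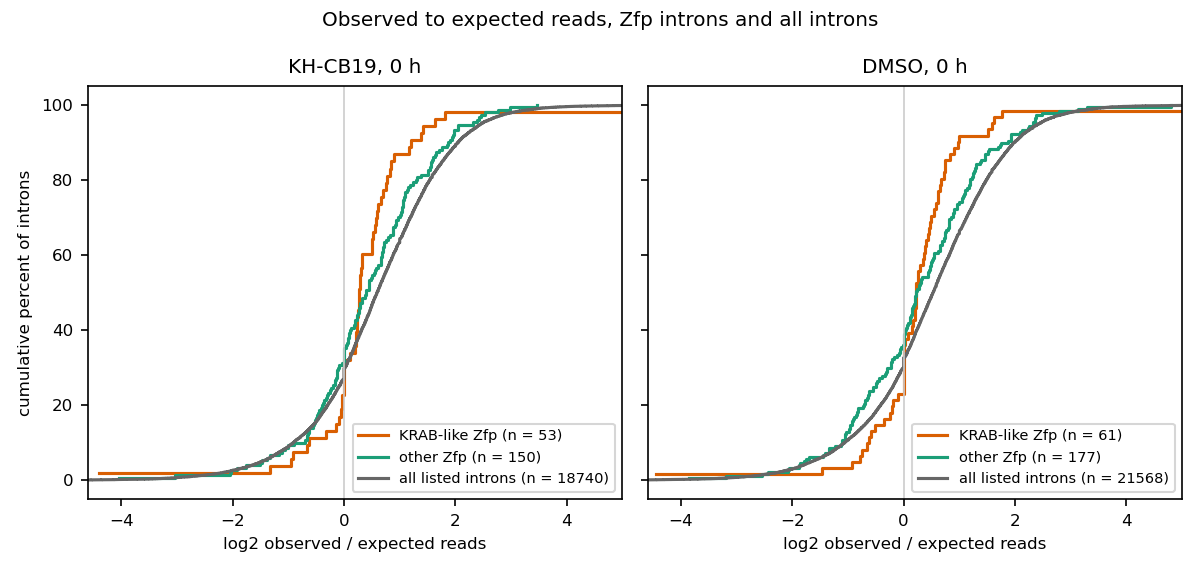
Cumulative percent of introns (vertical axis) by log2 ratio of observed to expected mean reads at 0 h (horizontal axis) in KH-CB19 and in DMSO, for introns of KRAB-like Zfp genes, other Zfp genes and the whole table. The KRAB-like curve is the steepest, and the curve of the other Zfp genes lies left of that of all introns over most of its upper part; the ratio of Zfp534 intron 3, 7.32 in KH-CB19 and 7.71 in DMSO, lies beyond the right edge.

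Ratios were close in the treated and control cells harvested at once. Among 195 Zfp introns with a value in both groups, 38 stood above in both, 15 below in both, and no intron was called in opposite directions. The difference, KH-CB19 minus DMSO, had a median of 0.01 on the log2 scale and was within 0.5 in 181 of them. The ends of its range were -1.06 in intron 2 of Zfp532 and 0.89 in intron 9 of Zfp462, both chosen after their values were seen. These shared calls and differences were not counted over the whole table, so they are not shown to be particular to Zfp introns. A value in DMSO only was given for 43 introns and in KH-CB19 only for 8. Over the whole table, 21568 of 22228 introns had a value in DMSO and 18740 had one in KH-CB19. By the authors' deposited table, observed reads at 0 h summed to 11366.5 over the 203 Zfp introns with a value in KH-CB19. In DMSO they summed to 14787.5 over 238 introns. The sums thus cover different introns and are not scaled for depth.

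Among the detained introns the median ratio at 0 h was 3.60-fold in KH-CB19 and 3.59-fold in DMSO, from the authors' deposited table. Over every detained intron of the table it was 3.52-fold in KH-CB19 and 3.56-fold in DMSO. Of the 30, 27 of 29 with a value stood above expected reads in KH-CB19 (93.1%, where all detained introns gave 93.7%) and 30 of 30 in DMSO (where all gave 98.7%). Over all introns of either class, 5166 of 18740 stood above in KH-CB19 and 6086 of 21568 in DMSO. The detained ones among them gave 3207 of 3423 in KH-CB19 and 3408 of 3453 in DMSO. By these counts, introns not classed as detained stood above less often in Zfp genes than over all genes, and no test was made. Of the Zfp introns not classed as detained, 16 of 174 stood above in KH-CB19 and 20 of 208 in DMSO. One of these was intron 13 of Zfp462, a large finger protein that restrains lineage genes in stem cells, with 39.5 observed and 13 expected reads in KH-CB19 and 67.5 observed and 18.5 expected in DMSO in the authors' deposited table. The median length was 1336 bp over the detained Zfp introns, 2408.5 bp over all Zfp introns and 1562 bp over every detained intron of the table.

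**Figure D2:**
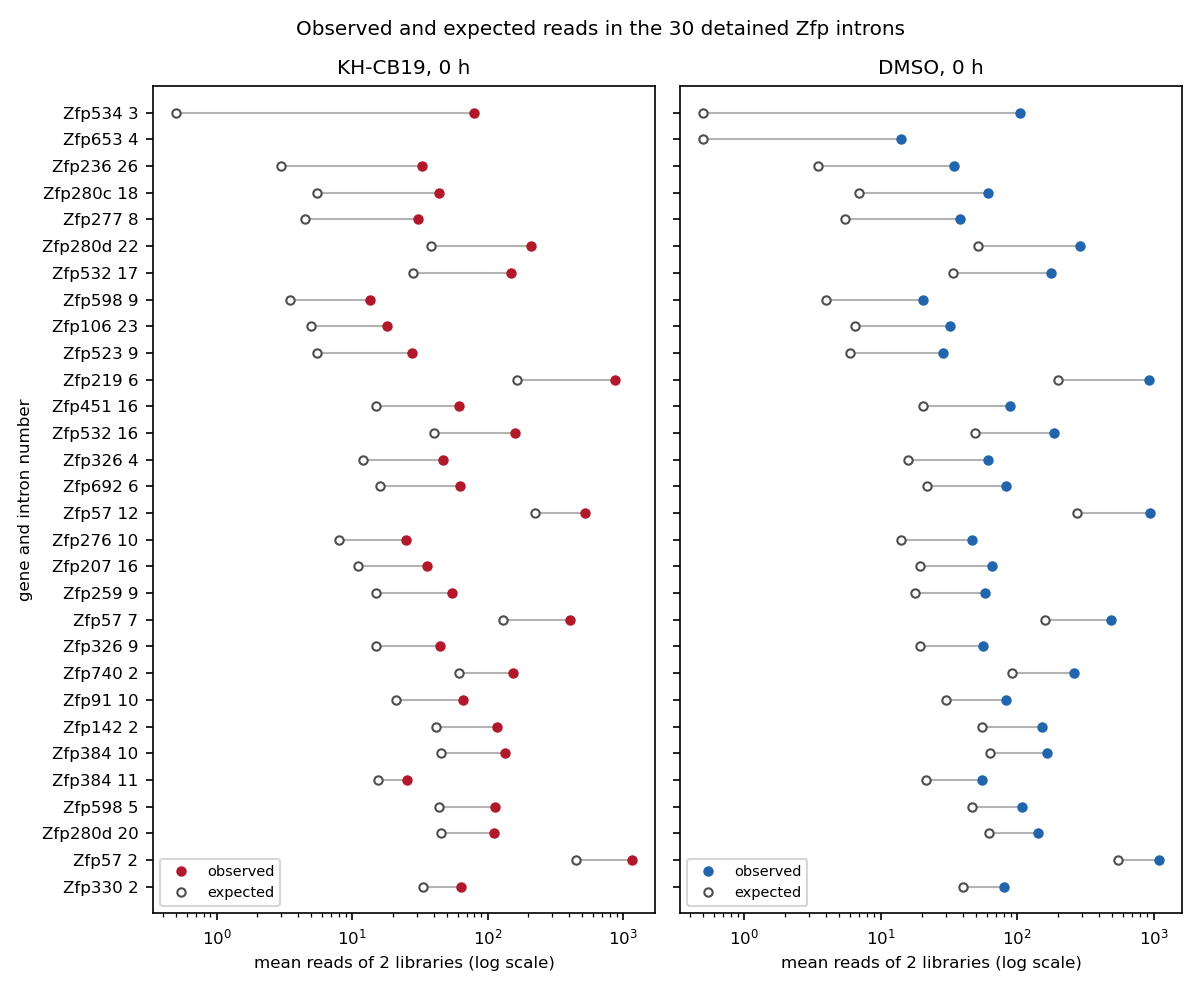
Observed (filled) and expected (open) mean reads of 2 libraries at 0 h on a log scale, for each of the 30 detained Zfp introns, in KH-CB19 and in DMSO, ordered by the DMSO ratio. Observed reads lie right of expected reads in every intron with a value; Zfp653 intron 4 has no KH-CB19 value.

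The largest ratio belonged to Zfp534 intron 3. In the authors' deposited table it had 80 observed and 0.5 expected reads in KH-CB19, and 104.5 observed and 0.5 expected in DMSO. An expected mean of 0.5 is the lowest listed for these introns, so the ratio has no firm size, and reads of Zfp534 can be shared with near-identical neighbours of its cluster. Next among introns with at least 50 observed reads in DMSO came Zfp280c intron 18. It had 43.5 observed and 5.5 expected reads in KH-CB19, and 61.5 observed and 7 expected in DMSO, in the authors' deposited table.

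This intron is number 16 of 18 in its transcript and the only one listed for the gene. Zfp280d, its paralog, also had its highest ratio close to the 3′ end. Zfp280d intron 22, number 20 of 21 in its transcript, had 208.5 observed and 38 expected reads in KH-CB19 and 290 observed and 52 expected in DMSO in the authors' deposited table. Its neighbour, intron 20, which is 12476 bp long and lies 46 bases away, had 111.5 observed and 45.5 expected in KH-CB19 and 143.5 observed and 62.5 expected in DMSO, from the authors' deposited table. Both lie downstream of all 7 motifs of the protein. The 4 other listed introns of the gene, all further upstream, stood below expected reads in DMSO, with log2 ratios between -1.89 and -1.05 in the authors' deposited table.

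Zfp57, the KRAB protein of imprinted genes, had the most intron reads of any Zfp gene. In the authors' deposited table intron 2 had 1165.5 observed and 447.5 expected reads in KH-CB19, and 1100 observed and 549.5 expected in DMSO. Intron 12 had 519.5 observed and 224.5 expected in KH-CB19, and 939.5 observed and 276 expected in DMSO, by the authors' deposited table. Intron 7 had 406.5 observed and 130.5 expected in KH-CB19, and 492 observed and 160 expected in DMSO, by the authors' deposited table. The 3 detained introns are short, between 148 and 664 bp, and by the deposited coordinates all lie in the first part of the gene. Introns 2 and 12 could not be matched to a single annotated intron by length.

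The last listed intron of Zfp57 went the other way by a wide margin. Intron 17, between coding exons and 3224 bp long, had 50 observed and 1053.5 expected reads in KH-CB19, and 59.5 observed and 1293.5 expected in DMSO, in the authors' deposited table. Its log2 ratios of -4.40 in KH-CB19 and -4.44 in DMSO were the lowest of all Zfp introns. Over the 5 listed introns of Zfp57, the observed and the expected reads both summed to 2465.5 in KH-CB19, while in DMSO 3028 were observed and 3027.5 expected. With nearly equal sums, an excess in one intron is matched by a deficit in the others of the gene.

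The same equality, within 1 read, held for Zfp219, Zfp532 and Zfp740. These 4 were among the 14 Zfp genes with at least 5 listed introns and full DMSO values (28.6%), against 124 of 1306 such genes in the whole table (9.49%). Over 103 Zfp genes with a DMSO value for every listed intron, observed reads exceeded expected ones in 74, equalled them in 26 (25.2%) and fell short in 3. The equality held in 1109 of 6391 genes overall (17.4%). These shares include genes with 1 listed intron, which were 57 of the 111 Zfp genes. With 1 listed intron, equal sums mean only that the ratio of that intron is near 1. In an equal gene with several listed introns, a ratio says how 1 intron compares with its neighbours and not how much of the gene is unspliced.

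Zfp219, a finger protein that acts with Sox9 in mouse cartilage, had nearly all its excess in 1 intron. Intron 6, 406 bp long, had 867 observed and 166 expected reads in KH-CB19 and 930.5 observed and 198.5 expected in DMSO, in the authors' deposited table. Intron 6 could not be matched to a single annotated intron by length. Introns 2, 4, 7 and 8 stood below expected reads in both groups. Intron 2 had 316.5 observed and 656 expected reads in KH-CB19 and 481 observed and 785.5 expected in DMSO, from the authors' deposited table. The lowest, intron 7, had 11 observed and 180.5 expected in KH-CB19 and 15 observed and 216 expected in DMSO in the authors' deposited table, and was chosen after its values were seen.

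In Zfp532, known in human carcinoma as a fusion partner of NUT, the excess lay at the end of the gene. Introns 16 and 17, the last pair and 166 bases apart, had log2 ratios, by the authors' deposited table, of 1.98 and 2.42 in KH-CB19 and 1.93 and 2.38 in DMSO. Intron 7, in the 5′ UTR and 17613 bp long, had 26.5 observed and 109 expected reads in KH-CB19 and 24.5 observed and 132 expected in DMSO, from the authors' deposited table. Zfp740 differed in placing its detained intron first in the transcript, in the 5′ UTR: intron 2 had 153 observed and 62 expected reads in KH-CB19 and 262 observed and 92 expected in DMSO, from the authors' deposited table. Its intron 6 had 139 observed and 189.5 expected in KH-CB19 and 192.5 observed and 282.5 expected in DMSO, from the authors' deposited table.

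**Figure D3:**
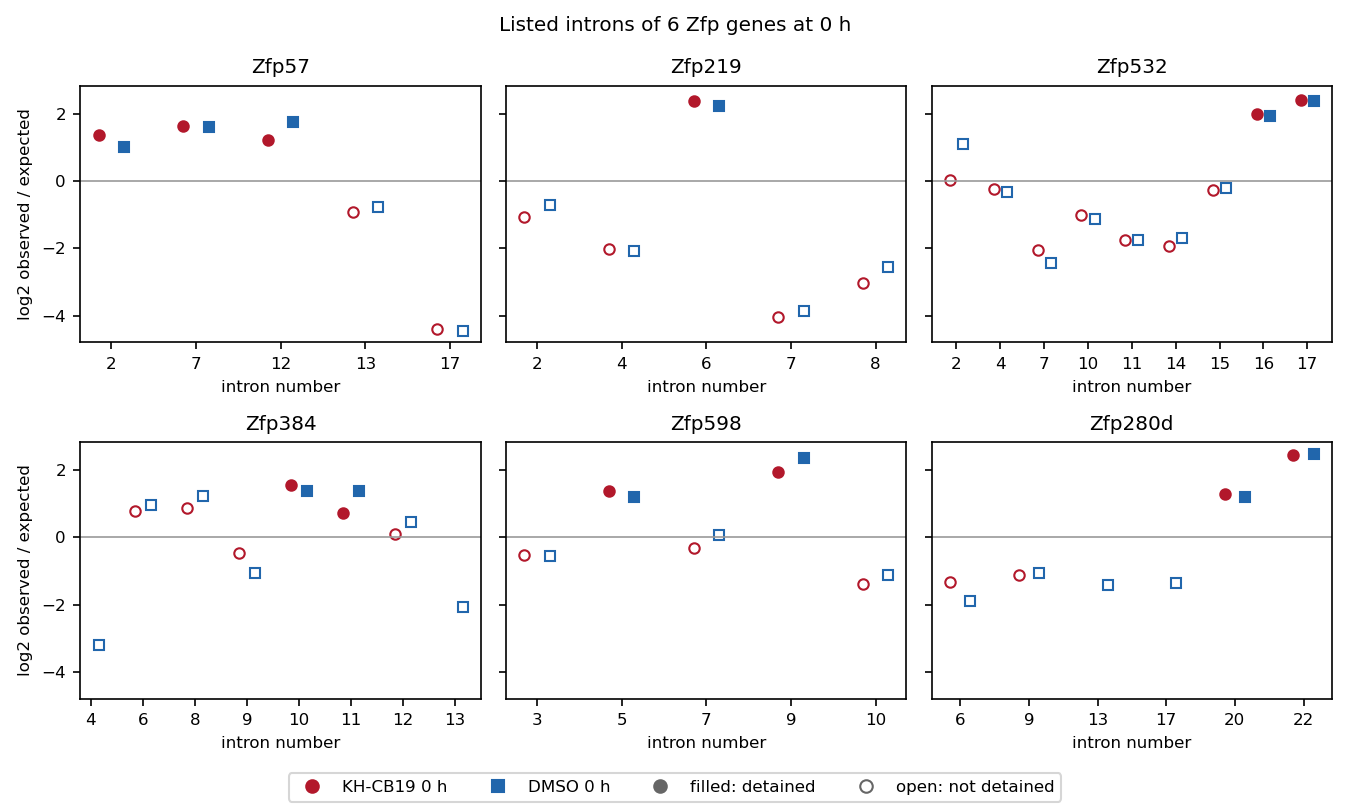
Log2 ratio of observed to expected reads at 0 h (vertical axis) for each listed intron, by intron number (horizontal axis), in Zfp57, Zfp219, Zfp532, Zfp384, Zfp598 and Zfp280d; circles are KH-CB19, squares are DMSO, and filled marks are detained introns. Detained introns lie early in Zfp57 and late in Zfp532 and Zfp280d, and the lowest mark is Zfp57 intron 17 at -4.40 in KH-CB19 and -4.44 in DMSO.

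Other introns with high ratios sat in genes of varied roles. Zfp451, a SUMO ligase in human cells, had 62 observed and 15 expected reads in intron 16 in KH-CB19 and 89 observed and 20.5 expected in DMSO, in the authors' deposited table. Zfp692, a repressor first described for genes of glucose synthesis, had 63 observed and 16 expected in intron 6 in KH-CB19 and 83.5 observed and 22 expected in DMSO, in the authors' deposited table. In Zfp326, a subunit of the DBIRD complex that couples transcription to splicing in human cells, intron 4 had 46.5 observed and 12 expected reads in KH-CB19 and 61 observed and 16 expected in DMSO, in the authors' deposited table.

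Annotated transcripts keep some of these introns. For 8 of the 26 matched detained Zfp introns (30.8%), an exon of another GENCODE transcript spans the whole intron, against 9 of 212 other Zfp introns (4.25%). Over the whole table the shares were 17% of 2803 matched detained introns and 7.5% of 16271 others. Of the 26, 24 lay between coding exons and 2 in a 5′ UTR.

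The 2 h comparison asks what Clk inhibition did to the detained introns. Of the 30, 2 were higher after KH-CB19 (6.67%, where all detained introns gave 5.47%) and 3 were lower (10.0%, where all gave 4.17%). The 5 introns were Zfp384 intron 11 and Zfp330 intron 2, which rose, and Zfp598 intron 9, Zfp451 intron 16 and Zfp142 intron 2, which fell. These shares rest on few introns, and the share of rises is near that over all detained introns. The median log2 ratio was -0.01 (0.00 over all detained introns), with 15 introns above 0 and 15 below. In 19 of the 30 the ratio was within 0.5 of 0. Summed over the 30, the normalised reads came to 4762 in KH-CB19 and 4587 in DMSO in the authors' deposited table.

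**Figure D4:**
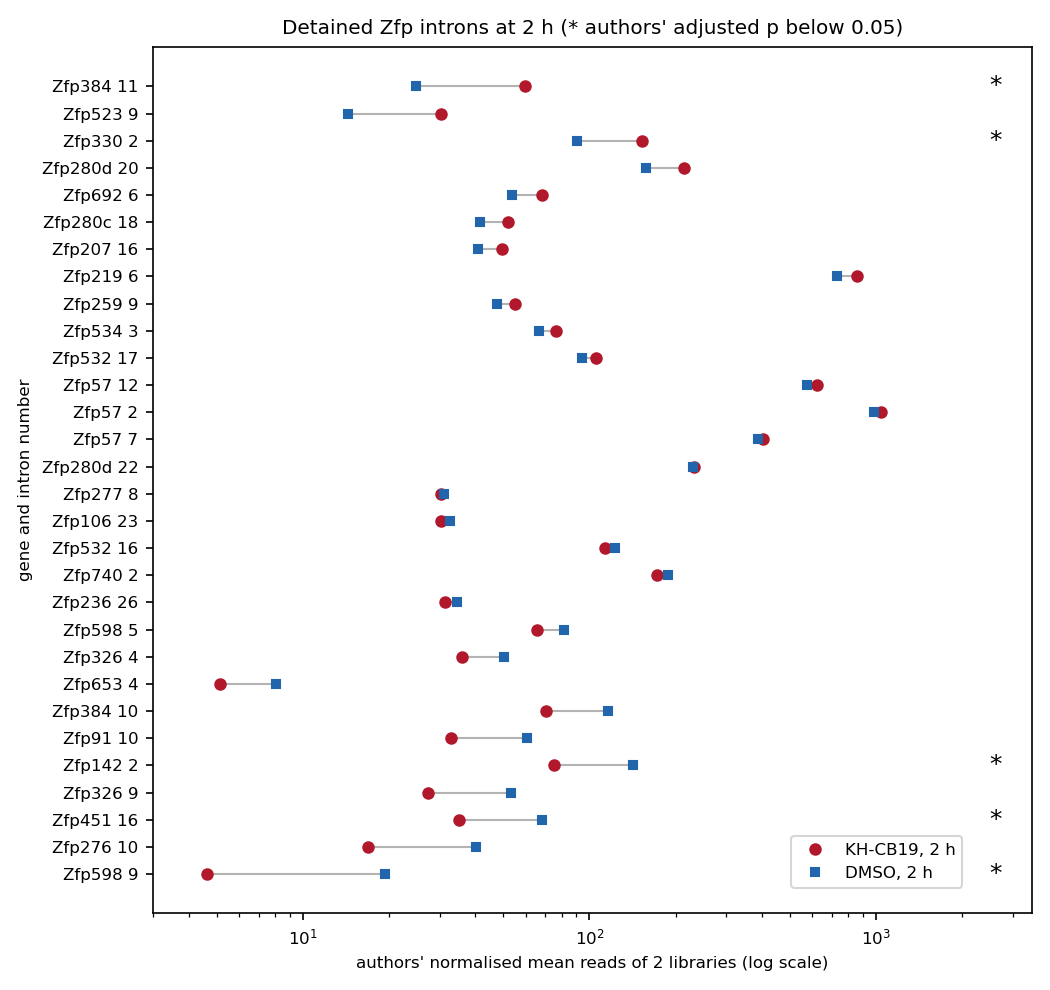
Authors' normalised mean reads at 2 h on a log scale (horizontal axis) for each detained Zfp intron, with circles for KH-CB19 and squares for DMSO, ordered by their ratio; stars mark the 5 introns with an adjusted p under 0.05. The introns with the most reads, in Zfp57 and Zfp219, have nearly overlapping marks, and Zfp598 intron 9 at the bottom has the fewest reads in KH-CB19, at 4.64.

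The greatest change was a fall in Zfp598, the ubiquitin ligase that marks collided ribosomes. Its intron 9 (chr17:24816350-24816453, mm9, plus strand, 103 bp, number 8 of 11 in its transcript and between coding exons) had 4.64 normalised reads in KH-CB19 and 19.4 in DMSO in the authors' deposited table. It was 4.17-fold lower in KH-CB19 (log2 ratio -2.06, adjusted p = 0.0429, from the authors' deposited table). With so few reads the size of this change is poorly fixed. Zfp598 intron 5 is longer, at 543 bp, and had 65.7 normalised reads in KH-CB19 and 81.2 in DMSO in the authors' deposited table. Its log2 ratio of -0.31 did not pass the test (adjusted p = 0.631, from the authors' deposited table).

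Zfp142, with its 36 finger motifs, lost reads in intron 2 (chr1:74626501-74631957, mm9, minus strand, 5456 bp). The authors' deposited table gave 75.0 normalised reads in KH-CB19 and 141 in DMSO. The level was 1.88-fold lower in KH-CB19 (log2 ratio -0.91, adjusted p = 0.00795, from the authors' deposited table), the smallest adjusted p of the 30. This is the intron whose junction, shown above, is spanned by AGG, with AG before it and G after. It is number 2 of 8 in its transcript, ahead of all the fingers.

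Zfp451 intron 16 (chr1:33819054-33821358, mm9, minus strand, 2304 bp) had 35.0 normalised reads in KH-CB19 and 68.5 in DMSO in the authors' deposited table. The 1.96-fold fall was only just past the threshold (log2 ratio -0.97, adjusted p = 0.0496, from the authors' deposited table). This intron could not be matched to a single annotated intron by length, so its place in the transcript is not given.

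The clearest rise was in Zfp384, a transcription factor of the nuclear matrix also called Nmp4 or CIZ. Intron 11 (chr6:124981040-124981688, mm9, plus strand, 648 bp), which cuts the finger array, had 59.5 normalised reads in KH-CB19 and 24.9 in DMSO in the authors' deposited table. It was 2.39-fold higher in KH-CB19 (log2 ratio 1.26, adjusted p = 0.0137, from the authors' deposited table). The detained intron next to it, intron 10 (4857 bp, 225 bases upstream), had the opposite sign, with 70.5 normalised reads in KH-CB19 and 116 in DMSO in the authors' deposited table. Its log2 ratio of -0.72 did not pass (adjusted p = 0.0755, from the authors' deposited table), and the difference between the 2 introns was not tested. GENCODE has 4 and 6 transcripts with intron 10 and intron 11, and the 1 transcript that holds both is not protein coding.

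Intron 11 of Zfp384 was also the detained intron with the lowest 0 h ratio after KH-CB19. There it had 25.5 observed and 15.5 expected reads by the authors' deposited table, which did not pass (adjusted p = 0.404). In DMSO at 0 h it had 55.5 observed and 21.5 expected in the authors' deposited table (adjusted p = 0.00177). The 0 h and 2 h values are on different scales, so no change over time was computed.

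Zfp330, a nucleolar cysteine-rich protein with no C2H2 motif, was the other gene to rise. Its intron 2 (chr8:85293298-85294699, mm9, minus strand, 1401 bp, number 4 of 9) had 152 normalised reads in KH-CB19 and 90.5 in DMSO in the authors' deposited table. It was 1.68-fold higher in KH-CB19 (log2 ratio 0.75, adjusted p = 0.0338, from the authors' deposited table). At 0 h its excess over expected reads was among the smallest of the detained introns, with 63.5 observed and 33.5 expected in KH-CB19 and 80 observed and 40 expected in DMSO, in the authors' deposited table.

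The introns with the most reads hardly differed between the groups, and none of them passed the test. Zfp57 intron 2 had 1040 normalised reads in KH-CB19 and 987 in DMSO in the authors' deposited table (log2 ratio 0.08, adjusted p = 0.895). Zfp219 intron 6 had 856 in KH-CB19 and 730 in DMSO in the authors' deposited table (log2 ratio 0.23, adjusted p = 0.522). By the authors' deposited table the log2 ratio of Zfp57 intron 12 was 0.11 and that of intron 7 was 0.06. The 4 detained introns of KRAB-like genes, those of Zfp57 and of Zfp534 alone, had ratios above 0, and none passed the test. The highest was 0.20 in Zfp534 intron 3, with 76.6 normalised reads in KH-CB19 and 66.7 in DMSO in the authors' deposited table.

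Genes with detained introns in pairs gave mixed values. Zfp280d intron 20 had 214 normalised reads in KH-CB19 and 158 in DMSO, and intron 22 had 232 in KH-CB19 and 229 in DMSO, in the authors' deposited table. The log2 ratio in the authors' deposited table was -0.12 in intron 16 of Zfp532 and 0.16 in its intron 17. Zfp326 was lower in both of its introns, with 27.3 normalised reads in KH-CB19 and 53.4 in DMSO in intron 9 (adjusted p = 0.0866, from the authors' deposited table). In its intron 4 there were 36.0 in KH-CB19 and 50.2 in DMSO (adjusted p = 0.628, from the authors' deposited table).

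Zfp genes with roles on RNA were taken as a list of 6 genes with 25 introns. Of these introns 6 were detained (24%, all introns 15.5%), in 4 genes (66.7%, all genes 34.6%). In this list 1 of 6 passed as lower (the Zfp598 intron 9 above, 16.7%, all detained introns 4.17%), 5 of 6 had ratios below 0, and the median log2 ratio was -0.39, against -0.01 over all detained Zfp introns and 0.00 over all detained introns. Zfp106, an RNA-binding protein needed by motor neurons in mice, had 30.3 normalised reads in intron 23 in KH-CB19 and 32.5 in DMSO in the authors' deposited table. The exception was Zfp207, also called BuGZ, a spindle protein that binds Bub3. Its intron 16 had 49.4 normalised reads in KH-CB19 and 41.0 in DMSO in the authors' deposited table. Both detained introns of Zfp326 and both of Zfp598 are among the 6, so the introns are not separate genes. Like the other lists, this one was chosen with earlier results of these data known, and no test of it was made. The values thus do not show a shared fall of such genes.

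The Zfp genes known from stem cells and chromatin were a list of 18 genes with 62 introns. Of these introns 9 were detained (14.5%, all introns 15.5%), in 5 genes (27.8%, all genes 34.6%). In that list 1 of 9 passed, as higher (Zfp384 intron 11, 11.1%, all detained introns 5.47%), and the median log2 ratio was 0.08. Its lowest member was intron 10 of Zfp91, an E3 ubiquitin ligase, with 32.8 normalised reads in KH-CB19 and 60.3 in DMSO (log2 ratio -0.88, adjusted p = 0.107, from the authors' deposited table).

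The partners of KRAB proteins were set beside the Zfp genes: Trim28, its enzymes and other heterochromatin proteins. Of 28 such genes 27 were in the table, with 144 introns, 20 of them detained (13.9%, all introns 15.5%), in 15 genes. In this list 1 of 20 passed, as higher (5.0%, all detained introns 5.47%), with a median log2 ratio of 0.05. It was intron 4 of Morc3, an ATPase found at chromatin, with 150 normalised reads in KH-CB19 and 49.0 in DMSO (3.07-fold higher, adjusted p = 7.81e-07, from the authors' deposited table). Genes of C2H2 proteins under other names numbered 57, with 122 introns, 9 of them detained (7.38%, all introns 15.5%). Their smallest adjusted p was that of intron 12 of Ctcf, the insulator protein, at 53.5 normalised reads in KH-CB19 and 94.1 in DMSO (log2 ratio -0.82, adjusted p = 0.0618, from the authors' deposited table).

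The labelled cell type was checked by which markers were listed. Of 12 genes that mark embryonic stem cells 11 had listed introns, and of 12 markers of other lineages 1 had, Fn1.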

How the data were processed

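Polyadenylated RNA was sequenced from 8 libraries (RNA integrity 8.8 to 9.4), and an untreated library (1) was left out. The submitters' processing notes name DESeq, Cufflinks 2.1.1, SAMtools 0.1.19, TopHat2 2.0.9, bedtools 2.17.0 and Bowtie 1.0.0, and the mouse build mm9. The making of the expected reads is not given in the sources used here. What the authors' deposited table holds is, per the file headers, mean read counts at 0 h (observed and expected), normalised mean reads (a signal) at 2 h, log2 ratios and adjusted p-values, taken here to come from DESeq. The authors gave some introns a mark for low coverage in place of 0 h values, and the lowest observed mean among Zfp introns was 10 reads. The depth per library is unknown from these means, so no interval was computed. The 2 libraries of a group had been combined, so no p-value here measures anything but the authors' own test.

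A model on counts had been planned for the case that values per library were given. They were not, and the authors' adjusted p was counted at 0.05 over the whole table, with no new test. The members and lists were chosen with earlier results of these data known. Introns were named if they passed at 2 h, lay in a gene with 2 or more detained introns or in a list, had the most reads, or were among the 10 largest or smallest ratios in DMSO with at least 50 reads (1 per gene). Of comparison lists the smallest adjusted p was named. Introns were matched to GENCODE M21 (GRCm38) by symbol and exact length, with 238 of 246 matched. Lengths are end minus start and coordinates are as deposited. A KRAB-like sequence needed 12 of 18 set positions in any protein coding transcript of the gene. The number of C2H2 motifs per gene came from the longest coding transcript, and motifs on either side of an intron from the matched transcript. Alternatives were an adjusted p of 0.01, a mean of at least 50 reads, genes as the unit, a pseudocount of 10 and, added after seeing the data, only genes with a C2H2 motif. Counting was tested on simulated data. Python 3.11.15, pandas 2.3.3 and NumPy 2.4.6 were used.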

Additional observations from a re-analysis of the deposited data

How the results depend on the processing

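Requiring at least 50 reads left 24 Zfp introns above expected reads in KH-CB19 at 0 h (43 without the requirement) and 3 below (16), 33 above in DMSO (50) and 4 below (26), and 1 higher at 2 h (2). It moved the median log2 ratio of observed to expected to 0.71 in KH-CB19 (0.31) and 0.72 in DMSO (0.22). At an adjusted p of 0.01, 28 stood above and 10 below in KH-CB19 at 0 h, and at 2 h 0 were higher and 1 was lower (2 and 3 at 0.05). Counted by gene, those below were 9 in KH-CB19 and 14 in DMSO. With only genes holding a C2H2 motif, 1 was higher at 2 h. No other count moved by over 1.5 times under these settings. At 0 h the 50 reads were observed reads, which are the numerator of the ratio, and at 2 h they were the mean of both groups. The 0 h setting thus takes out introns below expected reads more readily than those above. Its lower counts below and higher medians are partly built in and say nothing further about the introns. The cause of the other changes was not tested, beyond the smaller number of introns that each setting leaves. No paired analysis was possible because the table holds group means only, and for the same reason no library could be left out. Deposited means carry no spread between duplicates, and low introns such as Zfp598 intron 9 and Zfp653 intron 4 are limited by depth.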
